A study of Mus musculus with 14 samples.

Results

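The genes described here decide whether a T-cell survives or dies. Bcl2, Bcl2l1 and Mcl1 hold mitochondria intact, Bcl2l11, Bbc3 and Pmaip1 encode the BH3-only proteins BIM, PUMA and NOXA that oppose them, Bax and Bak1 are the effectors that open the outer mitochondrial membrane, and Fas is a death receptor with Fasl as its ligand. They were taken as every probe whose gene name on the array equals 1 of these 10 symbols, which gave 22 of the 56605 probes and 10 of the 36870 named genes. The arrays were 1-colour microarrays of total RNA from CD4+ T-cells, 7 from mice labelled Roquin san/+, which carry 1 copy of the sanroque allele of the RNA-binding protein gene Rc3h1 in the germline, and 7 from mice labelled wild-type. The labels gave neither age nor sex nor treatment, and no subset of the CD4+ T-cells is named. Levels are log2 of the background-corrected Cy3 signal of a probe minus the 75th percentile of its array, so 1 unit is a doubling, 0 is that percentile, and levels of different probes cannot be ranked. Differences are Roquin san/+ minus wild-type.

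In resting T-cells the BCL2-type guardians bind and hold BIM and the effectors, and cytokine signals keep this balance on the side of survival. When an immune response ends, BIM is the chief trigger of T-cell loss through mitochondria, while Fas removes repeatedly stimulated T-cells through caspase 8. PUMA and NOXA are classically switched on by p53, and NOXA acts mainly by removing MCL1.

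The 4 probes printed here lie within the protein-coding part of their gene and are shown because they read it at a place other than the brightest probe of the same gene. Each is 60 bases, read 5′ to 3′ on the strand of the transcript, with coordinates on build mm9 as the scanner files give them. The Bcl2 probe lies at chr1:108608970-108609029 on the minus strand, the Bcl2l1 probe at chr2:152655185-152655244 on the minus strand, the Bax probe at chr7:52721469-52721624 on the minus strand and the Bcl2l11 probe at chr2:127972893-127983988 on the plus strand. The Bax and Bcl2l11 probes span 156 and 11096 genomic bases and so cross an exon junction. Capitals in the Bcl2l11 probe mark the codons for Gly-Asp-Glu of the BH3 domain, the helix with which BIM binds its partners, and nothing is marked in the others.
Bcl2: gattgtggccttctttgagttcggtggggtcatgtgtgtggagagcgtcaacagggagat
Bcl2l1: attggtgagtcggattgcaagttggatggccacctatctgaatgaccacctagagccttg
Bax: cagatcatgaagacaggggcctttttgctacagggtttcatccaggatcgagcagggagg
Bcl2l11: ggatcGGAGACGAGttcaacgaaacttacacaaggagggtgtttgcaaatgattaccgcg

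Several arrays stood apart before any comparison. On Roquin san/+ array G and wild-type array E the spots lay 2 grid rows off the probe names and were moved back, and on these arrays 21.9% and 19.4% of probes were well above background, against 53.5% to 75.5% on the others, so a dim probe there sits at a floor of −5.88 and −5.67. The 8 CD4 T-cell genes (Cd3e, Cd4, Lck and others) were well above background on all 12 other arrays. Their mean level was 1.49 to 2.01 on 11 arrays but 0.44 on Roquin san/+ array F, 0.47 on array C and 0.71 on wild-type array C. Roquin san/+ array C was also the dimmest, with a 75th percentile of signal of 107 against 339 to 996 on the others. Its spot signals had an r of 0.918 with the median over the arrays, against 0.977 to 0.997 for the others. Array F held the top Roquin san/+ value for 6 of the 7 B-cell genes and for 9 of the 10 genes of myeloid cells. It was also top for 4 of 4 NK, 2 of 2 CD8 T-cell and 5 of 6 erythroid genes, and for 1 of 5 plasma cell genes. Its mean B-cell level was −0.76, while the rest of its group lay between −6.21 and −3.51 and the wild-type group between −6.46 and −2.60. Slide 1 carried 5 arrays of Roquin san/+ and 2 of wild-type, and slide 2 the reverse, so values within each slide are given beside the results. In RNA from a cell suspension, a higher share of cells of a type and more RNA per cell of that type cannot be told apart.

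No gene of the group differed between the genotypes beyond what the spread of the arrays allows over the whole array. Of the 22 probes, 21 were bright enough to test (the other, a Bcl2l1 probe, was well above background on 2 of 12 arrays), and 0 had an adjusted p under 0.05 in limma, where 0% of the 33120 tested probes did. 2 probes, 1 of Pmaip1 and 1 of Bcl2l1, had an unadjusted p under 0.05, against 3.25% of all tested probes. In 0 of the 21 were the genotypes without overlap, against 0.0362% of all tested probes. The differences of the 21 probes had a median of 0.08, with 16 above and 5 below 0, and those of all tested probes a median of 0.10 with 63.5% above 0. This median moved with the scaling, to −0.07 with the 75th percentile taken over all probes and to 0.29 with another background correction (normexp), so a difference near 0.1 in either direction is not set apart from the array as a whole.

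**Figure D1:**
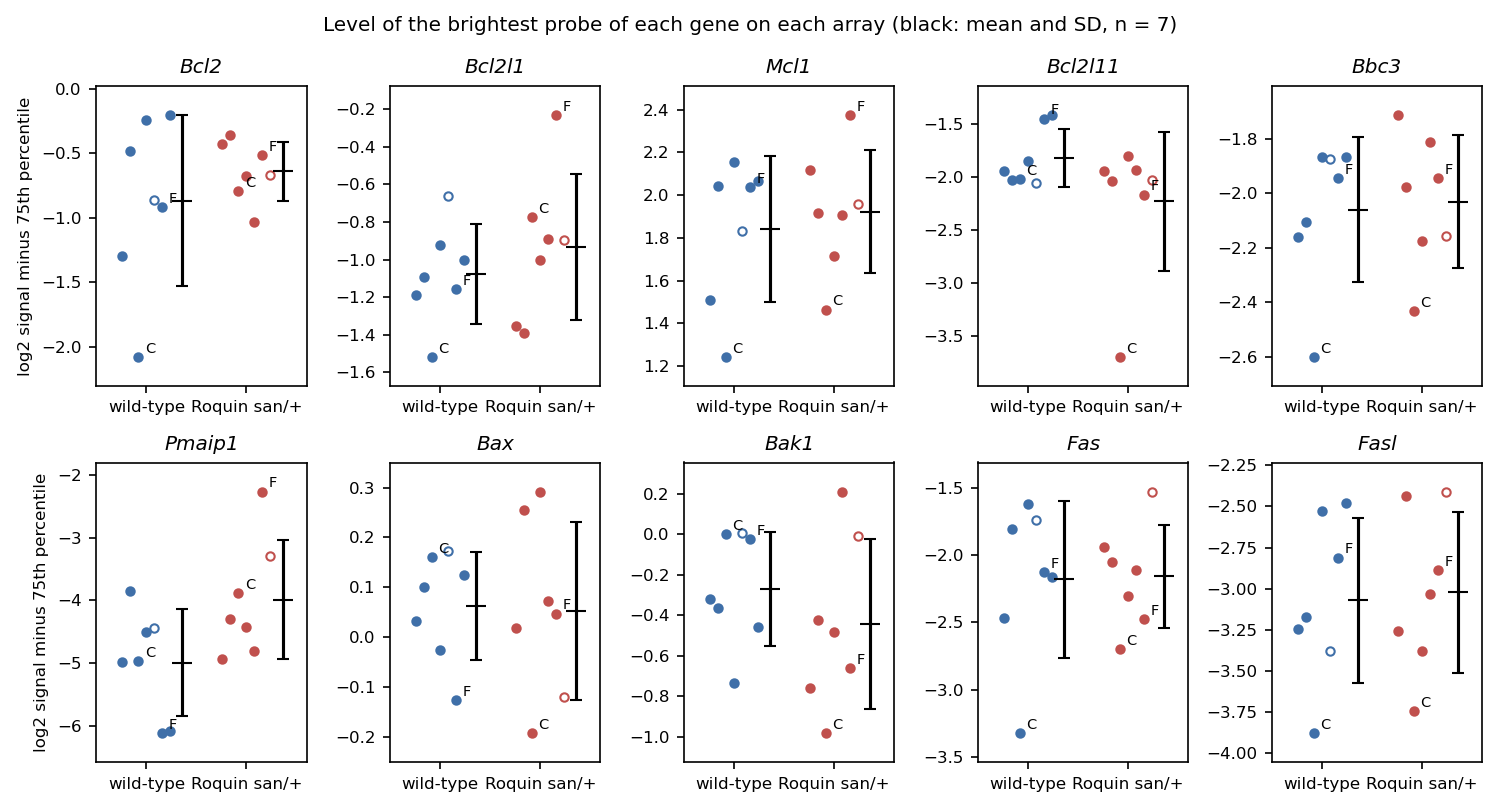
Level of the brightest probe of each gene on each array (y axis, log2 signal minus the 75th percentile of the array; each panel has its own scale) for wild-type (blue) and Roquin san/+ (red). Open points are the 2 displaced arrays, letters mark arrays C and F, and black bars are the mean and SD of 7 arrays. The genotypes overlap in every panel, array C of 1 genotype or the other is often lowest, and Pmaip1 reaches −2.26 on Roquin san/+ array F.

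For the pro-survival genes the brightest probes gave small differences, none past the test. Bcl2 ranged from −1.03 through a median of −0.67 to −0.36 on Roquin san/+ arrays and from −2.08 through −0.86 to −0.20 on wild-type arrays. Wild-type array C alone lay below −1.29, and the Roquin san/+ values all fell inside the wild-type range. The mean was −0.64 ± 0.23 (SD, n = 7) against −0.87 ± 0.66, a difference of 0.23 (SE 0.26, 95% interval −0.34 to 0.79, limma adjusted p 0.902). The coding probe shown above gave 0.23 (−0.21 to 0.67) and the remaining Bcl2 probe 0.26 (−0.29 to 0.80), with wild-type array C lowest in each of the 3. Without wild-type array C the brightest probe gave 0.03. It gave 0.07 with slide as a block and 0.05 with array weights or with the 75th percentile over all probes.

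Mcl1, the short-lived guardian that NOXA targets, ranged from 1.46 through 1.91 to 2.37 on Roquin san/+ arrays and from 1.24 through 2.04 to 2.16 on wild-type arrays. Array C was lowest in both genotypes. The means were 1.92 ± 0.29 and 1.84 ± 0.34 (SD, n = 7 each) and the difference 0.08 (SE 0.19, −0.32 to 0.48, limma adjusted p 0.958), with 0.11 for the other probe.

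Bcl2l1, which encodes BCL-XL, was read by probes that did not give 1 answer. Its brightest probe, downstream of the coding probe (chr2:152606404-152606463, minus strand), ranged from −1.39 through −0.89 to −0.23 on Roquin san/+ arrays and from −1.52 through −1.09 to −0.66 on wild-type arrays, with a difference of 0.14 (SE 0.19, −0.27 to 0.56, limma adjusted p 0.915). Its highest value was on Roquin san/+ array F, and leaving that array out gave 0.03. A dimmer probe placed by the file at chr2:152606400-152606446, over 47 of its 60 bases and overlapping that stretch, ranged from −5.95 through −5.44 to −3.14 and from −6.18 through −5.87 to −5.46. Its Roquin san/+ values were high on arrays C (−3.14) and F (−3.58), both low in CD4 T-cell genes and C also the dimmest array. The other 5 lay between −5.95 and −4.96, array G among them at its floor. Wild-type array C, also low in CD4 T-cell genes, read −5.82, inside the range of its group.

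The difference of this dimmer Bcl2l1 probe was 0.96 (SE 0.41, 0.07 to 1.84, limma p 0.0360, adjusted 0.883). The two-sided exact permutation p was 0.0280. It was 1.18 on the 12 well-placed arrays (exact permutation p 0.0087), 0.73 without array F (exact permutation p 0.0559), 0.66 without array C and 0.47 without the displaced arrays and both C and F. It was 0.88 with normexp (exact permutation p 0.0618) and 0.26 with quantile normalization (limma p 0.678). Within slide 1 it was 1.49 and within slide 2 it was 0.02. The coding probe shown above gave 0.18 (−0.73 to 1.10) and a further probe 1.12 (−0.28 to 2.51). Both were at the floor on the 2 displaced arrays, and both were highest on array C among the well-placed Roquin san/+ arrays. On the 12 well-placed arrays the coding probe gave 0.25 (exact permutation p 0.595) and the further probe 1.34 (exact permutation p 0.0303). The coding probe gave 0.64 within slide 1 and −0.74 within slide 2, the further probe 2.07 and −0.14. Without the displaced arrays and both C and F they gave −0.23 and 0.36.

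Of the BH3-only genes, Pmaip1 had the widest difference of the group and Bcl2l11 the lowest. Pmaip1 ranged from −4.93 through −4.30 to −2.26 on Roquin san/+ arrays and from −6.12 through −4.96 to −3.84 on wild-type arrays. Array F stood at the top of the Roquin san/+ values, and arrays F and G (−6.07) at the bottom of the wild-type values. Wild-type arrays B, D and E lay inside the Roquin san/+ range, and A and C just below its lower end. The means were −3.99 ± 0.94 and −4.99 ± 0.85 (SD, n = 7 each), a difference of 1.0 (SE 0.45, 0.04 to 1.96), with limma p 0.0414 and adjusted p 0.883. The two-sided exact permutation p was 0.0530.

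The Pmaip1 difference was not alike on the slides. It was 2.36 within slide 1, where the 2 wild-type arrays F and G were the lowest of all, and −0.07 within slide 2. The interaction of genotype and slide, in a limma fit over the 32831 probes with a value on every array, was −2.43 (SE 0.79, p 0.00932, adjusted p 0.418), and 11.9% of those probes had an unadjusted p under 0.05 for it. Slide as a block gave 1.15, and the difference without array F was 0.72 (exact permutation p 0.106). It was 0.60 with the deposited log2 values, 0.62 with array weights and 0.47 without the displaced arrays and Roquin san/+ arrays C and F.

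**Figure D2:**
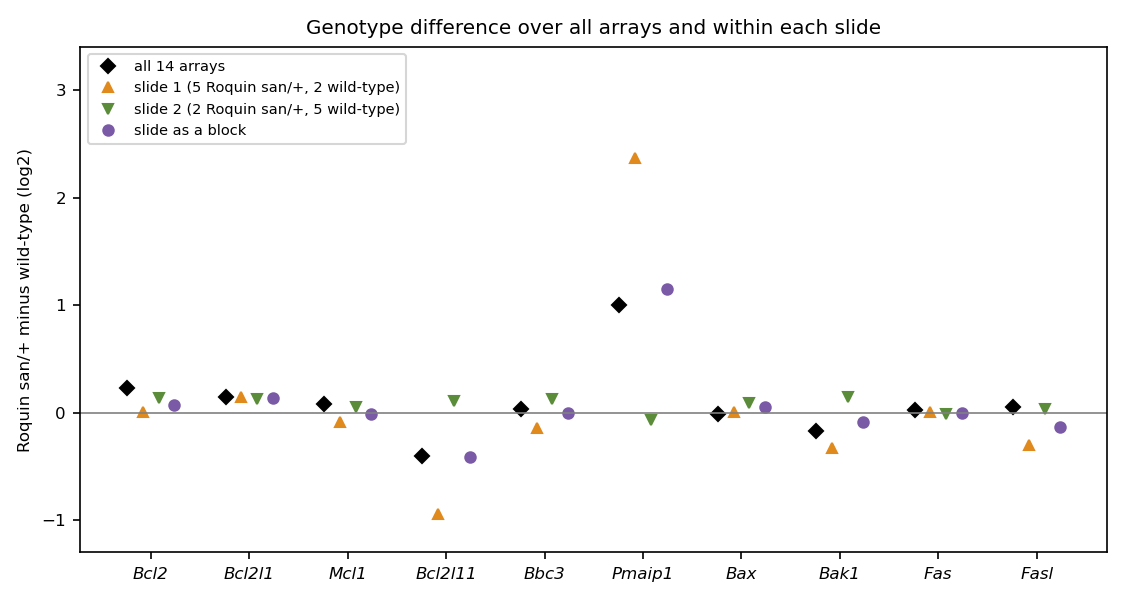
Roquin san/+ minus wild-type (y axis, log2) for the brightest probe of each gene over all 14 arrays, within slide 1, within slide 2, and with slide as a block. Pmaip1 is at 2.36 on slide 1 and −0.07 on slide 2 and Bcl2l11 at −0.94 and 0.11, while the other 8 genes stay between −0.33 and 0.23.

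Pmaip1 moved from array to array with the B-cell genes. With both taken as deviations from their genotype mean over the 14 arrays, the Pmaip1 level and the mean level of the 7 B-cell genes (Cd79a, Ms4a1, Pax5 and others) had a Pearson r of 0.87 (permutation p 7.0e-05, adjusted 0.0028 over 40 relations of 10 genes with 4 marker lists) and a Spearman rho of 0.80 (permutation p 0.00106, adjusted 0.0424). With 1 of the 7 genes left out at a time, a check added after seeing the data, r passed adjustment in 7 of 7 and rho in 5, failing without Cd79a (adjusted p 0.0504) and without Pax5 (0.0680). Without Roquin san/+ array F and wild-type array B, the farthest from the median, r was 0.70. Each r within a slide was taken on levels, not deviations, so a genotype difference within the slide enters it. For Pmaip1 and the B-cell genes it was 0.91 within slide 1 and 0.95 within slide 2. On slide 1 the wild-type arrays F and G were at −6.12 and −6.07 for Pmaip1 and at −6.38 and −6.34 for the B-cell genes. For the 10 myeloid genes r was 0.75 (adjusted p 0.0286, rho 0.65, adjusted 0.145), 0.71 without the 2 farthest arrays, and 0.93 and 0.13 within the slides. CD4 T-cell and erythroid genes were the remaining lists. On all 12 well-placed arrays, 5 of the 7 B-cell, 10 of 10 myeloid and 2 of 6 erythroid genes were well above background. Of the B-cell genes, Cd79a was so on 9 of these arrays and Blk on 5. NK, CD8 T-cell and plasma cell genes were not set against the 10 genes. Array F was also the highest Roquin san/+ array for the NK (−1.87) and CD8 T-cell (−0.17) lists, so a tie particular to B-cell genes is not shown. The lists had median differences of 0.87 over the 6 tested B-cell genes and 1.10 over 10 myeloid genes (0.25 and 0.52 without array F), with 0 genes of either past adjustment in limma. Within slide 1 the B-cell median was 2.77, with 6 of 6 genes above 0, and within slide 2 it was −0.79, with 5 of 6 below 0. The myeloid medians were 1.89 and 0.07. With the B-cell level as a term in the limma fit, a check chosen after seeing the data, the Pmaip1 difference was 0.52 (95% interval −0.04 to 1.09). Whether such cells have any part in the Pmaip1 difference was not tested.

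Bcl2l11, the gene for BIM, ranged from −3.70 through −2.03 to −1.80 on Roquin san/+ arrays and from −2.05 through −1.94 to −1.42 on wild-type arrays. Array C stood alone at −3.70, with the other 6 Roquin san/+ arrays between −2.17 and −1.80, inside or next to the wild-type range. The difference was −0.41 (SE 0.27, −0.98 to 0.17, limma adjusted p 0.883; exact permutation p 0.129). It was −0.16 without array C, −0.19 with array weights and −0.74 with the deposited log2 values. Within slide 1, which holds array C, it was −0.94, and within slide 2 it was 0.11.

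The BH3 probe of Bcl2l11 shown above gave −0.44 (−1.06 to 0.18) although array C was not low there alone: its value of −7.43 lay above the −7.75 of array E. It was at the floor on the displaced arrays, gave −0.48 on the other 12 (exact permutation p 0.0325), and turned to 0.19 with normexp. The remaining Bcl2l11 probes gave 0.22 (12 arrays, as the displaced ones have no value there) and 0.00. Bbc3, the gene for PUMA, ranged from −2.43 to −1.71 and from −2.60 to −1.87, with a difference of 0.03 (SE 0.16, −0.32 to 0.38, limma adjusted p 0.985).

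**Figure D3:**
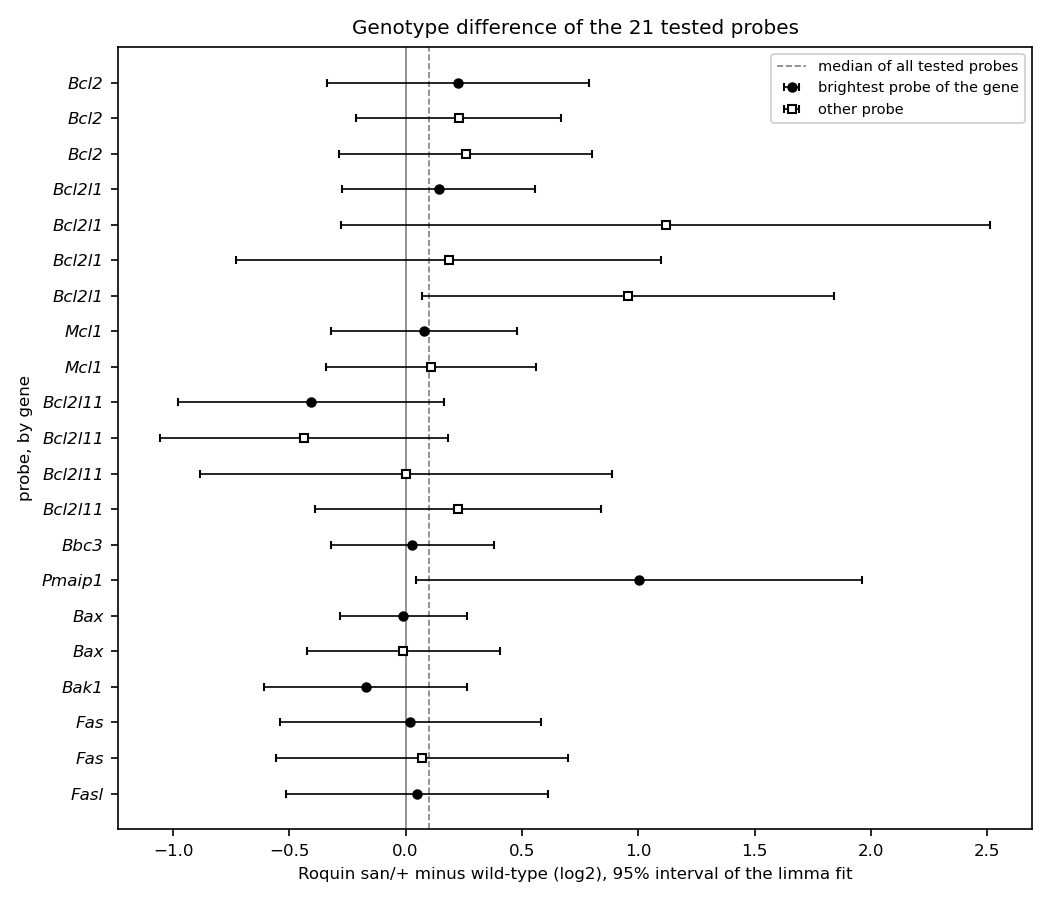
Roquin san/+ minus wild-type (x axis, log2) with the 95% interval of the limma fit for each of the 21 tested probes, ordered by gene on the y axis. The dashed line is the median of all tested probes, 0.10. Only the Pmaip1 probe and 1 dim Bcl2l1 probe have intervals clear of 0, and the probes of Bcl2, Mcl1, Bax and Fas each lie close together.

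Of the effectors, Bax had the narrowest interval of all 10 genes. It ranged from −0.19 through 0.05 to 0.29 on Roquin san/+ arrays and from −0.13 through 0.10 to 0.17 on wild-type arrays, and the Roquin san/+ values reached past the wild-type range at both ends. The difference was −0.01 (SE 0.13, −0.28 to 0.26, limma adjusted p 0.995) for the brightest probe and −0.01 (−0.42 to 0.40) for the coding probe shown above. Bak1 ranged from −0.98 through −0.48 to 0.21 and from −0.74 through −0.32 to 0.00, with a difference of −0.17 (SE 0.20, −0.61 to 0.26, limma adjusted p 0.904). Over all 10 genes the 95% interval of the brightest probe lay within 1 log2 unit of 0 for 9, the exception being Pmaip1.

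Fas and Fasl had overlapping levels in the genotypes. Fas ranged from −2.70 through −2.11 to −1.53 on Roquin san/+ arrays and from −3.32 through −2.13 to −1.62 on wild-type arrays, with array C lowest in both. The difference was 0.02 (SE 0.26, −0.54 to 0.58, limma adjusted p 0.995), and 0.07 for a dim probe annotated to another Fas transcript. Fasl ranged from −3.74 through −3.03 to −2.41 and from −3.88 through −3.17 to −2.48, again with array C lowest in both, and its difference was 0.05 (SE 0.26, −0.51 to 0.61, limma adjusted p 0.984).

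Array C was the lowest of its genotype for 7 of the 10 genes among Roquin san/+ arrays and for 6 among wild-type arrays. The Roquin san/+ one was the dimmest array, and both were low in CD4 T-cell genes. Roquin san/+ array F was lower still in those genes (0.44 against 0.47 on array C), but was lowest of its genotype for 0 of the 10 and highest for 3. Across the 14 arrays, Fas had an r of 0.74 with the mean of those genes (permutation p 0.00215, adjusted 0.0287, rho 0.61, adjusted 0.145). It was 0.76 without Roquin san/+ arrays C and F. Within the slides it was 0.79 and 0.87, on levels and not on deviations from the genotype mean. Wild-type array C, lowest for Fas at −3.32 and low in CD4 T-cell genes, was kept in the 0.76 and lies on slide 2. Roquin san/+ arrays C and F lie on slide 1. An r without all of these arrays was not computed, so the values do not show a relation apart from them. For the erythroid genes the r of Fas was −0.70 (adjusted p 0.0475, rho −0.59, adjusted 0.145), −0.66 without the 2 farthest arrays, and −0.62 and −0.79 on levels within the slides. Bcl2 had an r of 0.50 with the CD4 T-cell genes (adjusted p 0.259, rho 0.43, adjusted 0.333), and 0.77 without arrays C and F of Roquin san/+, on which Bcl2 was −0.80 and −0.51. Wild-type array C, lowest for Bcl2 at −2.08, was kept in the 0.77. Of the 40 relations 4 passed by Pearson's r and 1, Pmaip1 with the B-cell genes, by Spearman's rho, and their cause was not tested.

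**Figure D4:**
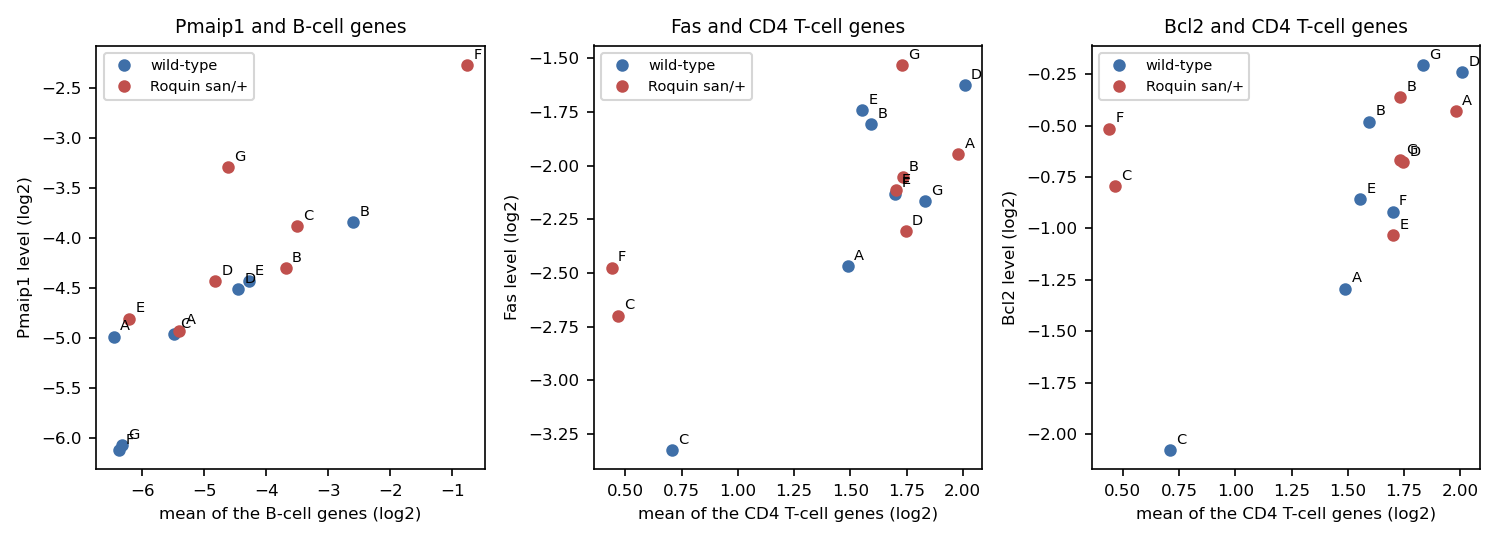
Each point is 1 of the 14 arrays, named by its letter, wild-type in blue and Roquin san/+ in red. The x axes are the mean level of the B-cell genes (left) or the CD4 T-cell genes (middle and right) and the y axes the level of Pmaip1, Fas and Bcl2 (all log2 signal minus the 75th percentile); Pmaip1 climbs with the B-cell genes, and 3 arrays lie below 1 on the CD4 T-cell axis.

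Among the 10 genes themselves, 31 of 45 pairs had an r above 0 over the 14 arrays. 2 passed adjustment over the pairs. Bcl2 and Mcl1 had an r of 0.78 (permutation p 0.00094, adjusted 0.0211; rho 0.80, adjusted 0.0463), 0.64 without the 2 farthest arrays, and 0.37 and 0.93 within slides 1 and 2. Mcl1 and Bbc3, a guardian and 1 of its BH3-only opponents, had an r of 0.81 (permutation p 0.00052, adjusted 0.0211; rho 0.58, adjusted 0.330), 0.51 without the 2 farthest arrays, and 0.79 and 0.83 within the slides. The r within a slide was taken on levels, while the other r were on deviations from the genotype mean. All levels share the scaling of their array. Pairs of other probes were not counted, so 31 and 2 of 45 cannot be set against the rest of the array.

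The rest of the apoptosis machinery gave 0 adjusted calls in each of 5 lists, and its medians stood on either side of the 0.10 of all tested probes. Of the other BCL2 family genes 9 of 14 were tested, with 5 above and 4 below 0 and a median of 0.22. Bmf, a BH3-only gene whose product BMF binds the same guardians as BIM, was the highest and Bcl2l12 the lowest at −0.19. Bmf ranged from −4.47 through −4.13 to −2.47 on Roquin san/+ arrays and from −5.64 through −4.69 to −4.07 on wild-type arrays, with its top value on array F. Its difference was 0.87 (SE 0.32, limma p 0.0170, adjusted 0.883; exact permutation p 0.0134), 0.63 without array F, and 0.76 and 0.65 within the slides.

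Of the 14 apoptosome and caspase genes 6 were above and 8 below 0, with a median of −0.04. Diablo, whose product leaves the mitochondrion to block inhibitors of caspases, was lowest and Apaf1, the scaffold of the apoptosome, highest at 0.25. Diablo ranged from −1.94 through −1.58 to −1.48 on Roquin san/+ arrays and from −1.51 through −1.28 to −0.89 on wild-type arrays, so the genotypes overlapped only at their edges. Its difference was −0.36 (SE 0.14, limma p 0.0221, adjusted 0.883; exact permutation p 0.00117), −0.33 without array F, and −0.24 and −0.32 within the slides. Bmf and Diablo were named for an unadjusted p under 0.05 among the lists, so their p-values are those of the most extreme of many genes.

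The 14 death receptor and adaptor genes, Fas and Fasl among them, were above 0 for 12 and below for 2, with a median of 0.06, from Casp8 (−0.11), the caspase that Fas recruits, to Tnf (0.39). Of the 6 inhibitor of apoptosis genes 4 were above and 2 below 0, with a median of 0.12, from Birc5 (survivin, −0.32) to Naip1 (1.09, limma p 0.0513, adjusted 0.883), a dim probe that gave 2.45 on slide 1 and −0.05 on slide 2. Of the p53 and FoxO genes 9 of 10 were tested, 6 above and 3 below 0, with a median of 0.06, from Foxo3 (−0.17), a driver of the BIM gene, to Sesn2 (0.35).

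**Figure D5:**
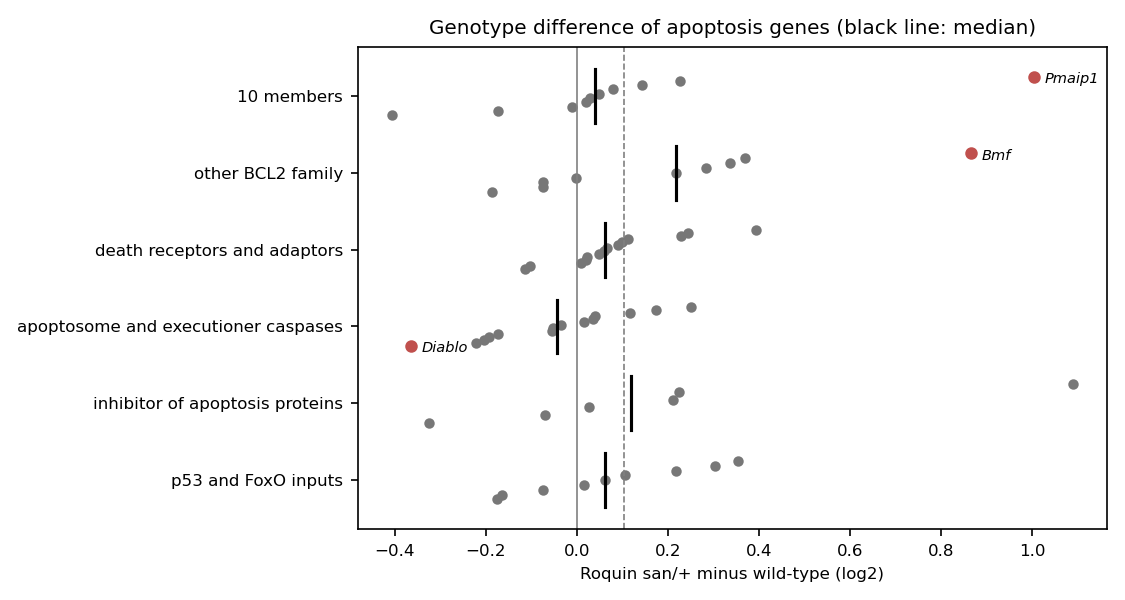
Roquin san/+ minus wild-type (x axis, log2) for the brightest tested probe of each gene, 1 point per gene, in the 10 genes described and 5 lists of the apoptosis pathway. Black lines are medians, the dashed line is the median of all tested probes (0.10), and red points (Pmaip1, Bmf, Diablo) have an unadjusted limma p under 0.05.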

How the data were processed

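Total RNA of CD4+ T-cells was labelled with Cy3 and hybridised to 14 Agilent arrays; the submitters' processing notes name Agilent Feature Extraction 10.5.1.1. The authors deposited 1 scanner file per array, whose gProcessedSignal is a background-corrected intensity, and a table of log2 values, used as an alternative. The scanner file headers give build mm9. Roquin san/+ G and wild-type E were moved by 2 grid rows. From the log2 signals of an array its 75th percentile was subtracted, computed from 10345 probes that every array showed well above background. Probes well above background on at least 6 of the 12 well-placed arrays (33120) were tested with lmFit and eBayes of limma 3.58.1 (R 4.3.3), Benjamini-Hochberg adjusted. Single values had two-sided exact permutation tests over all arrangements of the arrays, correlations 100000 resamples (scipy 1.17.1). A gene was represented by its brightest probe on average. The fit was tested on simulated data with independent normal noise and no slide effect, floor or outlying array. That check does not cover those features of the arrays. Each sample is a separate array by its label letter; the labels do not say more, so p-values measure the spread between these samples. Same-lettered arrays did not deviate together (correlations −0.28 to 0.41) and were not paired. The 10 genes, the lists and the tests were chosen with earlier results of these data known. Named were the 10 genes with all their probes and, of the 5 pathway lists, genes with an unadjusted p under 0.05 and the highest and lowest of each. 1 gene of the B-cell marker list is not reported here and was left out of it. Marker lists for other cell types were also scored: NK genes had a median difference of 1.08, plasma cell genes 0.58, erythroid genes 0.15, the 1 tested CD8 gene 0.54 and CD4 T-cell genes −0.13. Alternatives were normexp (offset 50), 2 other scalings, 3 filters, slide and replicate letter as blocks, each slide alone, the deposited log2 values, probe names as deposited, variance settings, array weights and leaving out arrays. The files hold no read depth; the number of arrays limits the precision.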

Additional observations from a re-analysis of the deposited data

Results flagged for a closer look

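Over the brightest probes of the 10 genes in both genotypes, 20 groups of 7 arrays were screened for a single array far from the others, a screen that chance alone trips in about 1 of 20 groups. It marked 2. Bcl2l11 on Roquin san/+ array C was −3.70, while the other 6 arrays lay between −2.17 and −1.80, so that the gap took up 0.807 of the whole range. Bbc3 on wild-type array C was −2.60, with the others between −2.16 and −1.87 and a gap of 0.601 of the range. Both arrays were low in CD4 T-cell genes (0.47 and 0.71), and Roquin san/+ array C was also the dimmest, with a 75th percentile of signal of 107 against 339 to 996 on the others. Roquin san/+ array F, lower still in CD4 T-cell genes (0.44), was not marked. The cause was not tested.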

How the results depend on the processing

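No probe of the 10 genes and no other probe passed an adjusted p of 0.05 in limma under any alternative that was run: the count was 0 throughout, with 211 (probe names as deposited) to 3185 (without wild-type array E) probes at an unadjusted p under 0.05 against 1078 as reported. It was 456 with slide as a block, 364 with normexp and slide, 598 on slide 2, 467 with the B-cell level as a term, 522 of 12902 with the filter on all 7 arrays of a genotype, 627 without wild-type array A, 689 without F, 2315 without Roquin san/+ array E, 2262 without both displaced arrays (2252 with normexp), 3017 on slide 1 and 3125 with array weights. The lowest adjusted p was 0.169 over all probes (slide 1 alone) and 0.399 over the probes of the 10 genes. With a replicate block (the letters, which did not pair the arrays) 792 probes had an unadjusted p under 0.05, 0 passed adjustment and the Pmaip1 difference was 1.0. Of 340 alternative values of single genes, 277 kept their direction and 63 turned it, all of them without a call in either direction; the causes were not tested.

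The turned values were as follows. With normexp, Mcl1 gave −0.022 and Bax 0.051. With the 75th percentile over all probes, Bcl2l1 gave −0.030, Mcl1 −0.092, Bbc3 −0.14, Fas −0.15 and Fasl −0.12. With quantile normalization, Bbc3 gave −0.072, Fas −0.086 and Fasl −0.14. With slide as a block, Mcl1 gave −0.016, Bbc3 −0.0062, Bax 0.048, Fas −0.0040 and Fasl −0.13. On slide 1, Mcl1 gave −0.087, Bbc3 −0.14, Bax 0.0027 and Fasl −0.30. On slide 2, Bcl2l11 gave 0.11, Pmaip1 −0.070, Bax 0.094, Bak1 0.15 and Fas −0.016. With the deposited log2 values, Bax gave 0.038, Fas −0.033 and Fasl −0.066. With probe names as deposited, Bax gave 0.0033, Fas −0.031 and Fasl −0.12. Without both displaced arrays, Bax gave 0.038, Fas −0.012 and Fasl −0.10. With array weights, Bcl2l1 gave −0.072, Mcl1 −0.030, Bax 0.10, Fas −0.087 and Fasl −0.15. Without the displaced arrays and Roquin san/+ arrays C and F, a fit chosen after seeing the data like those that follow, Bcl2l1 gave −0.014, Bax 0.12 and Fasl −0.0070. With normexp and no displaced arrays, Mcl1 gave −0.049 and Bax 0.11. With normexp and slide, Mcl1 gave −0.095, Bax 0.091 and Fasl −0.026. Leaving out 1 array at a time, Bax ranged from −0.050 to 0.031, Bbc3 from −0.061 to 0.10, Bcl2 from 0.026 to 0.34, Fas from −0.17 to 0.11, Fasl from −0.086 to 0.17 and Mcl1 from −0.019 to 0.16.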
